A study of Mus musculus with 13 samples.

Results

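The genes that present peptides to T cells were followed in mouse liver tumours after 9 days of siRNA against Yap. They were every symbol of the deposited tables that starts with H2-, the name of the mouse major histocompatibility complex (MHC), together with B2m, Tap1, Tap2, Tapbp, Psmb8, Psmb9, Psmb10, Nlrc5, Ciita and Cd74. This gave 54 of the 23361 symbols measured, 44 with an H2- name and 10 others. By the role of their products, 32 were class I heavy chain genes, 8 were class I partner and processing genes, 12 were class II genes, and H2-Ke2 and H2-Ke6 encode no MHC chain although they carry the name.

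All 13 libraries were made from tumour RNA of mice of a mixed C57BL/6 and 129Sv background. Every animal carried Mst1-/- and Mst2Flox/Flox alleles and had received Adeno-Cre, so the loss of both kinases was common to treated and control tumours. Hepatocellular carcinoma was found by ultrasound, and animals were then randomized to siRNA in lipid nanoparticles (LNPs) given intravenously, siLuciferase-LNPs in 8 libraries (siLuc) or siYap-LNPs in 5 (siYap). The libraries hold RNA of whole tumours, so fewer cells of a type and less RNA per cell cannot be told apart. Which libraries share an animal is not stated in the labels. The file names carry a number, 5 of them over the 8 siLuc libraries and 3 over the 5 siYap libraries, which may mark animals. Each n below therefore counts libraries, and p-values measure only the spread between libraries, which may be partly technical. With counts summed per number, the 4 class II genes and 5 class I heavy chain genes called below were called again.

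Class I molecules are made by almost every nucleated cell. A heavy chain pairs with the light chain B2m and takes up peptides that proteasomes cut in the cytosol, that the transporter of Tap1 and Tap2 carries into the endoplasmic reticulum, and that tapasin (Tapbp) helps to load. Class II molecules are made mainly by macrophages, dendritic cells and B cells: their alpha and beta chains assemble on the invariant chain Cd74 and exchange its remnant for an endosomal peptide with the help of H2-DM, which H2-O restrains. Transcription of the class II genes depends on the co-activator Ciita, and Nlrc5 is its class I counterpart. In mice of the H2-b haplotype, C57BL/6 among them, the Ea gene is not expressed and no H2-L molecule is made.

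Yap1 itself ranged from 8.10 to 11.9 FPKM (fragments scaled to transcript length and sequencing depth, from the authors' software) in the 8 siLuc libraries and was 4.09, 4.17, 2.72, 2.23 and 3.23 FPKM in siYap replicates 1 to 5. Its log2 fold change was -1.58 ± 0.17 (SE; adjusted p = 2.36e-05, edgeR's quasi-likelihood test). Library totals ran from 23637021 to 37043914 fragments, and siYap replicates 1 and 3 had the lowest. A gene is called here at an adjusted p under 0.05 over all 15132 genes tested. By that rule 30.8% of genes were called, 16.0% higher and 14.8% lower in siYap, and the median log2 fold change of all genes was -0.003.

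Of the class II genes tested, 4 of 10 fell in siYap tumours and none rose, while 4 of 21 class I heavy chain genes rose and 1 fell. Called lower were thus 40.0% of class II genes, against 14.8% of all genes. Called higher were 19.0% of class I heavy chain genes, close to the 16.0% of all genes, and 2 of those 4 genes share fragments with copies and were not called as summed pairs. Of the 54 genes, 41 had enough fragments to be tested, and 13 of them (31.7%) were called, 5 higher and 8 lower, a share close to the 30.8% of all genes. The classes differed within that total. The 10 class II genes had a median log2 fold change of -0.90, with all values below 0. The 21 class I heavy chain genes had a median of 0.37, with 15 values above 0. Among the 8 partner and processing genes 1 was called higher and 2 lower, with a median of -0.10.

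**Figure D1:**
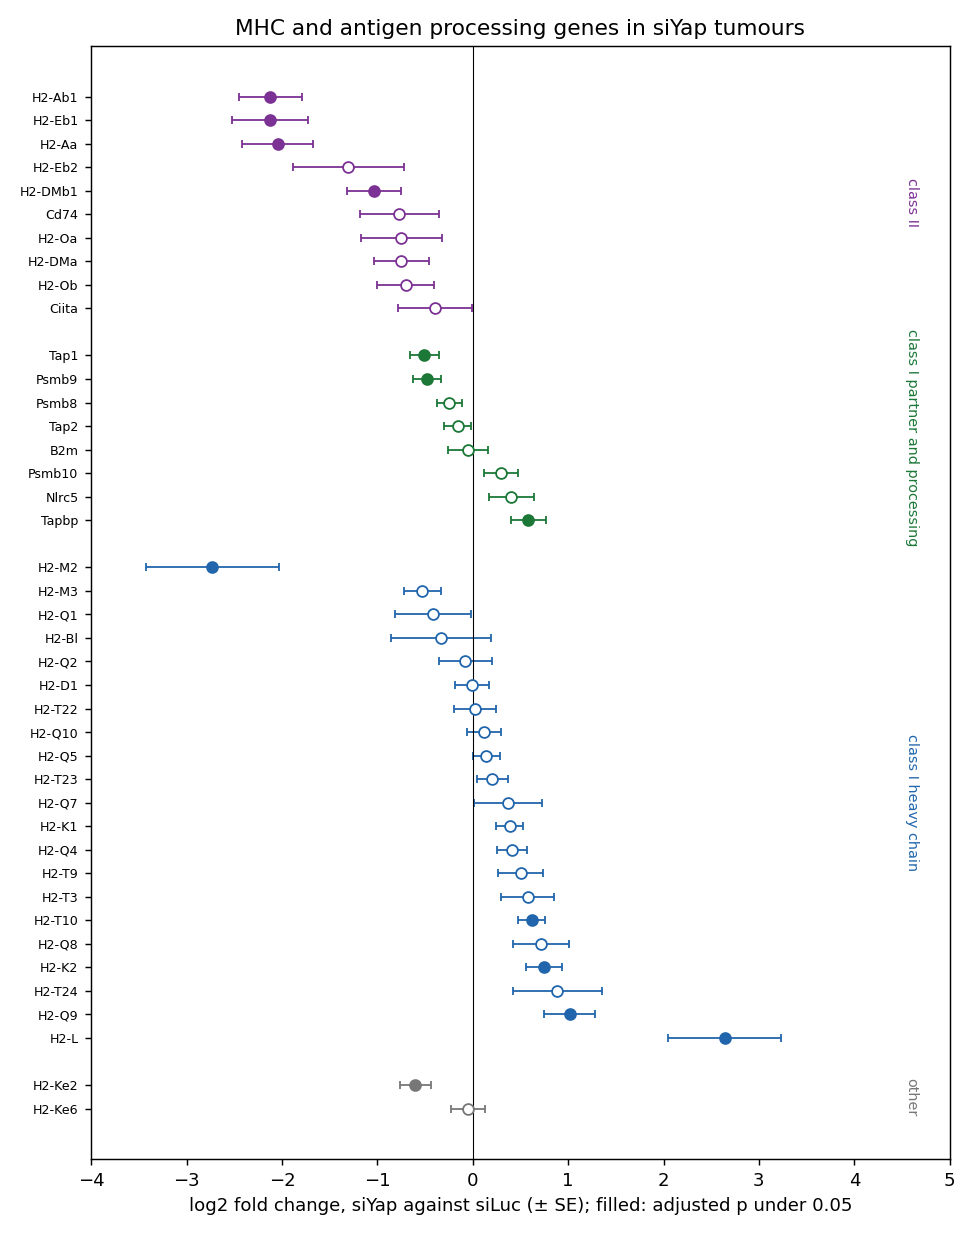
Log2 fold change (x axis, siYap against siLuc, point with SE) of the 41 genes tested, grouped by role; filled points passed an adjusted p of 0.05. All 10 class II points lie below 0, while 15 of the 21 class I heavy chain points lie above it.

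The promoters of class II genes carry a shared module of short elements bound by the RFX, CREB and NF-Y factors, which recruit Ciita. The bases just before the start of 3 called class II genes are shown because these genes fell together and because the letters of the module can be read in them. They are RefSeq sequences of build GRCm38.p6, 5' to 3' along the gene, for H2-Aa (chr17:34287824-34287973, minus strand), H2-Eb1 (chr17:34305717-34305866, plus strand) and H2-DMb1 (chr17:34153041-34153190, plus strand). Capitals mark the Y box ATTGG (or its complement), the X box core AACNGATG and the cyclic AMP response element TGACGTCA.

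H2-Aa: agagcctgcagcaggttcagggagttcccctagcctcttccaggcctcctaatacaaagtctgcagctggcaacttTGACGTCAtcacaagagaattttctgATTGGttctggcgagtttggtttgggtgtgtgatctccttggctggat
H2-Eb1: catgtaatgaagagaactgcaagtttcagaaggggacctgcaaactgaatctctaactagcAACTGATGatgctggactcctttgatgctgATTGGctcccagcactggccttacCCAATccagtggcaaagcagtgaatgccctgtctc
H2-DMb1: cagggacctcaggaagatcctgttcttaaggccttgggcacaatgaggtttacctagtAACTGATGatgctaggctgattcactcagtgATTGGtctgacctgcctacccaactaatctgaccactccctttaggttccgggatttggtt

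H2-Eb1 and H2-DMb1 hold the X box core followed by a Y box, 30 and 31 bases apart, and in H2-Aa a cyclic AMP response element precedes the Y box. Windows from 250 bases before to 50 bases after the start were searched on both strands in 37 of the 54 genes and in all 32851 windows of the table. H2-Ab1, which was also called lower, had no window and is not among the 8 class II windows. The core AACNGATG was found in 4 of 8 class II windows, in 1 of 22 class I heavy chain windows and in 2.32% of all windows. ATTGG is short and common: it was found in 7 of 8 class II windows, in 19 of 22 class I heavy chain windows and in 37.4% of all. TGACGTCA was found in 1 of 8 class II windows (H2-Aa), in 0 of 22 class I heavy chain windows and in 1.79% of all. The core followed by ATTGG at 30 or 31 bases was found in 5 windows of the whole table (0.0152%). Of these, 4 were H2-Eb1, H2-Eb2, H2-DMb1 and H2-DMb2, and 0 were among the 29 windows of the remaining genes followed here. The spacing searched is the one found in these same 4 windows, so their matches were fixed in advance and are no test. The letters of each motif were also chosen and shortened after the data were seen. The shares of single motifs are therefore descriptions and no test either. H2-DMb1 and H2-DMb2 are also close copies, so their matches are not independent. A match of letters is a description and does not show that a factor is bound.

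The chains of the classical class II molecules had the deepest falls of the class. H2-Ab1 (the beta chain of I-A, chr17:34263227-34269418) ranged in siLuc from 44.3 to 194.7 FPKM with a median of 100.8, and was 12.0, 23.96, 33.0, 30.9 and 22.9 FPKM in siYap replicates 1 to 5. Every siYap library lay below every siLuc library, which was so for 5.66% of all genes. Its log2 fold change was -2.12 ± 0.33 (SE; adjusted p = 0.000387).

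H2-Aa (the alpha chain of I-A, chr17:34282744-34287823) ranged in siLuc from 51.8 to 303.7 FPKM with a median of 137.5, and was 35.8, 32.0, 56.8, 40.0 and 29.1 FPKM in siYap replicates 1 to 5. The groups overlapped only through siYap replicate 3, which lay above siLuc replicate 2. The log2 fold change was -2.05 ± 0.37 (SE; adjusted p = 0.00123). H2-Eb1 (the beta chain of I-E, chr17:34305867-34316674) ranged in siLuc from 39.6 to 249.5 FPKM with a median of 107.1, and was 23.4, 22.2, 39.1, 32.1 and 22.6 FPKM in siYap replicates 1 to 5. Its groups came close without overlapping, and the log2 fold change was -2.12 ± 0.40 (SE; adjusted p = 0.00143).

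Among all genes, 6.21% were called with a log2 fold change of -1 or below, as 4 class II genes were here, and 2.28% with -2 or below, as these 3 chains were. The second beta chain gene H2-Eb2 stayed at or below 0.600 FPKM in every library and was not called (log2 fold change -1.31 ± 0.58, adjusted p = 0.0992). H2-Ea-ps, the alpha chain gene of I-E, was listed at 0 in all libraries but siYap replicate 4, where it had 0.207 FPKM, and was not tested.

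**Figure D2:**
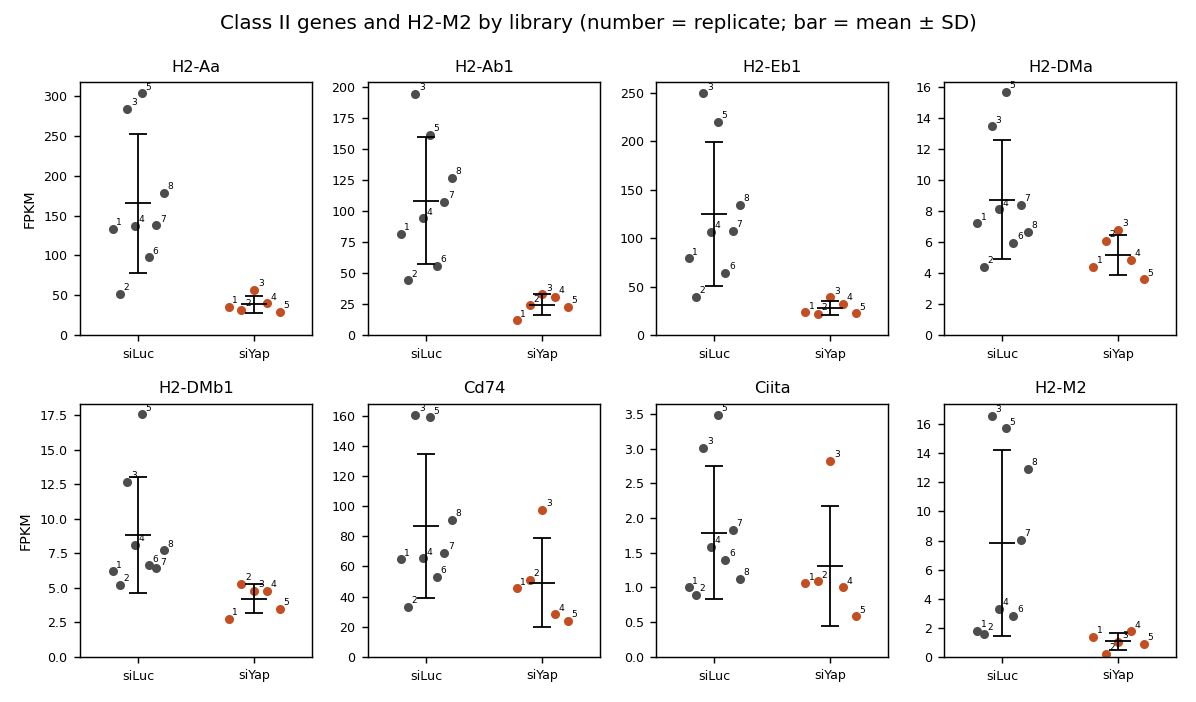
FPKM (y axis, linear from 0) of 7 class II genes and of H2-M2 in each library, with the replicate number beside each point and bars for mean ± SD. H2-Ab1 and H2-Eb1 do not overlap between the groups, Cd74 and Ciita overlap widely, and siLuc replicates 3 and 5 are the highest siLuc points of each gene drawn.

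The peptide-loading genes of class II had smaller differences. H2-DMb1, the beta chain of the exchange factor H2-DM (chr17:34153191-34160229), ranged in siLuc from 5.21 to 17.6 FPKM with a median of 7.17 and was 2.74, 5.31, 4.80, 4.81 and 3.49 FPKM in siYap. Only siYap replicate 2 reached into the siLuc range. H2-DMb1 was called lower (log2 fold change -1.04 ± 0.28, adjusted p = 0.0132), but not without siYap replicates 1 and 3 (adjusted p = 0.0756). Its partner H2-DMa ranged from 4.42 to 15.7 FPKM in siLuc and from 3.59 to 6.82 FPKM in siYap, and missed the threshold (log2 fold change -0.75 ± 0.29, adjusted p = 0.0587). The chains of the inhibitor H2-O were below 1 FPKM throughout and were not called, with log2 fold changes of -0.75 for H2-Oa and -0.70 for H2-Ob. H2-DMb2, a close copy of H2-DMb1, had at most 1.71 FPKM and was not tested.

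The invariant chain and the class II regulator were not called. Cd74 ranged in siLuc from 33.3 to 160.7 FPKM with a median of 67.3 and was 45.5, 50.9, 97.7, 28.1 and 24.1 FPKM in siYap replicates 1 to 5. The groups overlapped widely, with siYap replicate 3 above 6 of the 8 siLuc libraries, and the log2 fold change was -0.77 ± 0.41 (SE; adjusted p = 0.171). Ciita ranged in siLuc from 0.890 to 3.49 FPKM with a median of 1.49 and was 1.06, 1.09, 2.82, 1.003 and 0.582 FPKM in siYap. It had a log2 fold change of -0.40 ± 0.39 (SE; adjusted p = 0.456). These p-values do not show that Cd74 and Ciita were unaffected.

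Within a library the I-A and I-E chains were lower relative to Cd74. The ratio of H2-Aa to Cd74 in FPKM lay between 1.56 and 2.09 in the siLuc libraries and was 0.787, 0.627, 0.581, 1.42 and 1.21 in siYap replicates 1 to 5, with no overlap. For H2-Eb1 the ratio was 1.19 to 1.63 in siLuc and 0.40 to 1.14 in siYap, also without overlap. For H2-Ab1 it was 1.01 to 1.55 in siLuc and 0.264 to 1.10 in siYap, and siYap replicate 4 overlapped the siLuc range. These ratios were formed after the values of both genes were seen and were not tested.

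From the lowest to the highest control library, H2-Aa spanned 5.86-fold and the class I chain gene H2-K1 1.53-fold. The siLuc replicates 3 and 5 held the 2 highest siLuc values of 8 of the 10 class II genes tested. The same libraries had the highest summed T cell markers (9 genes), 28.0 and 29.95 FPKM. The sums were 4.49 to 16.8 FPKM in the other siLuc libraries and 4.21 to 13.98 FPKM in siYap. Cd3g was the largest part of both sums, with 11.8 and 13.3 FPKM. Cd3e, Cd8a and Cd8b1 were small parts. They were higher in siYap replicate 1 (1.43, 1.85 and 1.39 FPKM) than in siLuc replicate 5 (1.19, 1.80 and 1.12 FPKM). In the same comparison Cd3d, Cd3g, Cd4, Cd5, Lck and Cd2 were lower in siYap replicate 1, for example Cd2 with 2.25 against 5.78 FPKM. Cd8a and Cd8b1 in siYap replicate 1 were also below siLuc replicate 3 (1.996 and 1.89 FPKM). All 9 T cell markers had a value above 0 in every library, and 1 of them, Cd3g, was called lower. The part of T cells in the class II differences was not tested.

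The file names carry a code whose first digit is 6, 7 or 8, which the labels do not explain. Digit 6 holds 2 libraries of each group, digit 7 holds 5 siLuc and 2 siYap libraries, and digit 8 holds 1 of each. In that order the differences within a digit, on the log2 scale, were -1.72, -1.83 and -2.46 for H2-Ab1. For H2-Aa they were -1.18, -1.89 and -2.60, and for H2-Eb1 they were -1.21, -1.92 and -2.56. All were below 0. Cd74 differed in sign, with 0.11, -0.82 and -1.94, as did Ciita, with 0.27, -0.38 and -0.92.

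Among class I heavy chains, the abundant classical genes H2-K1 and H2-D1 were not called. H2-K1 ranged in siLuc from 317.6 to 484.7 FPKM with a median of 444.0 and was 421.2, 647.8, 500.6, 600.8 and 614.6 FPKM in siYap replicates 1 to 5. All siYap libraries but replicate 1 were above the siLuc range, and the log2 fold change of 0.39 ± 0.14 lay at the threshold (SE; adjusted p = 0.0504). H2-K1 passed it in 8 of 26 alternatives, for example in edgeR with DESeq2-type size factors (adjusted p = 0.0494) or without siYap replicate 1 (adjusted p = 0.0412).

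H2-D1 ranged in siLuc from 278.9 to 370.1 FPKM with a median of 327.9 and was 192.4, 413.8, 202.1, 363.3 and 419.0 FPKM in siYap. The siYap libraries fell on both sides of the siLuc range, with replicates 1 and 3 below it, and the log2 fold change was -0.01 ± 0.18 (SE; adjusted p = 0.979). H2-Q10, a class I chain that the liver secretes, had 383.6 ± 81.6 FPKM in siLuc (SD, n = 8) and 411.8 ± 127.0 in siYap (SD, n = 5). H2-T23, which encodes the NK cell ligand Qa-1, had 96.5 ± 15.2 and 110.4 ± 35.2 FPKM. Neither was called (adjusted p = 0.641 and 0.350).

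The 4 class I genes called higher had at most 6.75 FPKM in any siLuc library, and 2 of them, H2-K2 and H2-T10, are listed by RefSeq as transcribed pseudogenes. H2-K2 ranged in siLuc from 2.7 to 4.87 FPKM and was 3.68, 7.55, 7.44, 7.93 and 5.48 FPKM in siYap, a log2 fold change of 0.75 ± 0.19 (adjusted p = 0.00804). H2-T10 ranged in siLuc from 5.06 to 6.75 FPKM and was 7.04, 10.03, 10.47, 12.45 and 6.65 FPKM in siYap, a log2 fold change of 0.62 ± 0.14 (adjusted p = 0.00522). In each gene 1 siYap library lay within the siLuc range.

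H2-Q9, a Qa-2 gene, ranged in siLuc from 1.29 to 4.73 FPKM and was 6.89, 5.87, 8.06, 4.37 and 5.19 FPKM in siYap, a log2 fold change of 1.02 ± 0.27 (adjusted p = 0.0109). Without siYap replicates 1 and 3 it was 0.69 (adjusted p = 0.136). H2-L ranged in siLuc from 2.09 to 5.04 FPKM and was 9.55, 5.74, 83.4, 6.74 and 5.90 FPKM in siYap, where replicate 3 stood far above the rest. Its groups did not overlap, which was so in this direction for 5.57% of all genes. The log2 fold change was 2.64 ± 0.59 (SE; adjusted p = 0.00485), fell to 1.08 without siYap replicate 3 (adjusted p = 0.0114) and was 0.76 without siYap replicates 1 and 3 (adjusted p = 0.0560).

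**Figure D3:**
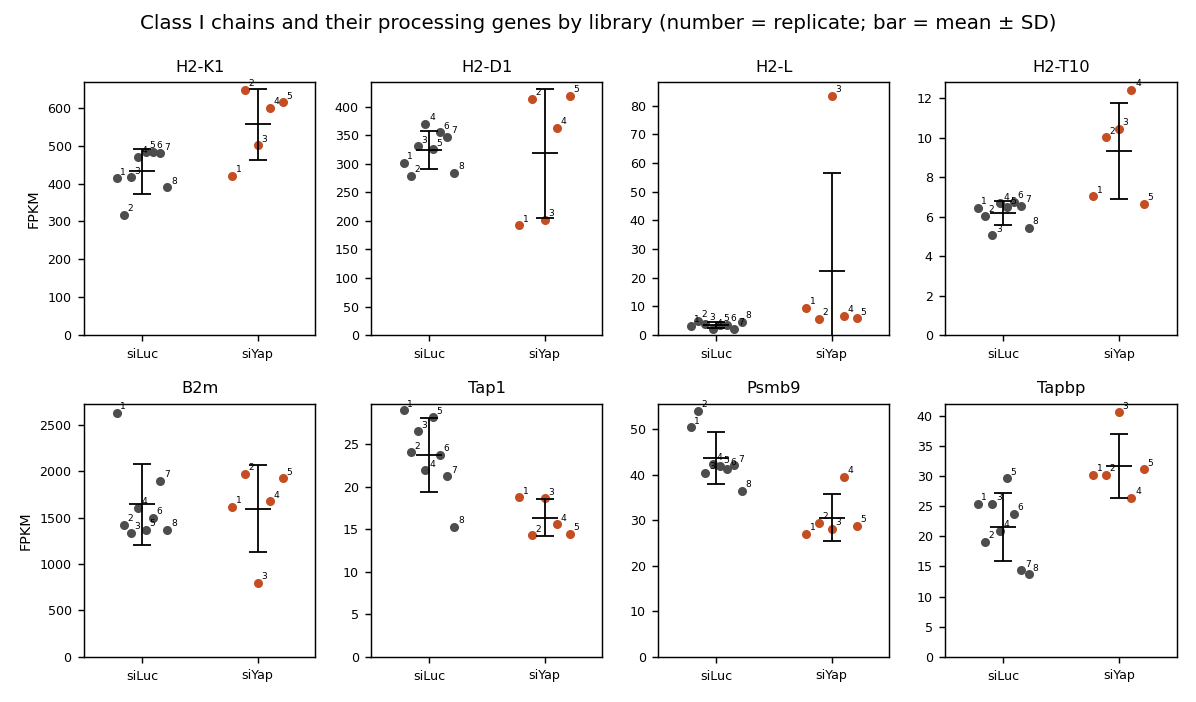
FPKM (y axis, linear from 0) of 4 class I heavy chain genes and 4 partner and processing genes in each library, with the replicate number beside each point and bars for mean ± SD (the lower bar of H2-L in siYap is truncated at 0). H2-L in siYap replicate 3 stands at 83.4 FPKM, and H2-D1 in siYap replicates 1 and 3 lies below the siLuc points.

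Values of near-identical class I genes are uncertain, because fragments can match more than 1 copy. H2-D1 and H2-L, H2-Q7 and H2-Q9, and H2-T9 and H2-T22 were the only genes here with fractional fragments. In every pair at least 1 gene was fractional in all 13 libraries (H2-D1 itself in 12), while the sum was whole in 13 of 13, within the 6 digits that the tables give. That precision is 0.05 fragments for H2-D1 with H2-L, 0.005 for H2-T9 with H2-T22 and 0.000501 for H2-Q7 with H2-Q9. H2-L held between 0.317% and 18.9% of its pair, with the highest shares in siYap replicates 3 (18.9%) and 1 (2.85%). H2-Q9 held between 20.1% and 60.8% of its pair, again highest in siYap replicate 3.

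With each pair summed before the fit, none of the 3 was called. The log2 fold change was 0.04 for H2-D1 with H2-L (adjusted p = 0.875), 0.58 for H2-Q7 with H2-Q9 (adjusted p = 0.154) and 0.23 for H2-T9 with H2-T22 (adjusted p = 0.192). Of the class I genes called higher, H2-K2 and H2-T10 were called in that fit. In the GENCODE transcripts of GRCm38, a median of 13.6% of the 50-base words of 17 tested class I heavy chain genes also occurred in another gene. The 4 tested genes H2-L, H2-Q8, H2-Q9 and H2-T9 had no transcript there. Words shared with them were not counted, so the shares of their copies, such as H2-D1 and H2-Q7, may be too low. The share was 32.9% for H2-T10, mostly with H2-T22, and 9.4% for H2-K2. For the 10 class II genes tested the median was 0.0%, and only H2-DMb1 exceeded 10%, with 22.7%.

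H2-M2, of the M region at the far end of the complex, was the class I gene called lower. It ranged in siLuc from 1.59 to 16.6 FPKM with a median of 5.68 and was 1.39, 0.225, 1.05, 1.75 and 0.906 FPKM in siYap. Only siYap replicate 4 reached into the siLuc range, and the log2 fold change was -2.73 ± 0.70 (SE; adjusted p = 0.00981). Its highest siLuc values were in replicates 3 and 5, as for 8 of the 10 class II genes. H2-M2 shared 1.6% of its 50-base words with other genes. H2-M3, which presents N-formylated peptides, had 11.6 ± 3.06 FPKM in siLuc (SD, n = 8) and 7.76 ± 2.46 in siYap (SD, n = 5), and missed the threshold (log2 fold change -0.53 ± 0.20, adjusted p = 0.0513).

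The other 11 tested class I heavy chain genes were H2-Q1, H2-Q2, H2-Q4, H2-Q5, H2-Q7, H2-Q8, H2-T3, H2-T9, H2-T22, H2-T24 and the pseudogene H2-Bl, of which none was called. Their log2 fold changes lay between -0.41 (H2-Q1) and 0.89 (H2-T24). H2-Q1 varied widely within both groups, with 21.1 to 127.9 FPKM in siLuc and 16.5 to 103.6 FPKM in siYap. The 11 class I genes not tested were H2-Q6, H2-M1, H2-M5, H2-M9, H2-M11 and the 6 H2-M10 genes, with at most 0.243 FPKM in any library.

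The enhancer region of H2-K1 is shown because H2-K1 is the most abundant classical heavy chain here and carries an element found in 0 of 8 class II windows. It is RefSeq sequence of GRCm38.p6 before the start that the table gives (chr17:34000348-34000497, minus strand). The annotated gene extends to position 34000619, so other transcripts may start upstream. Capitals mark the core GGGATTCCC of the NF-kappaB site of enhancer A and the Y box.

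H2-K1: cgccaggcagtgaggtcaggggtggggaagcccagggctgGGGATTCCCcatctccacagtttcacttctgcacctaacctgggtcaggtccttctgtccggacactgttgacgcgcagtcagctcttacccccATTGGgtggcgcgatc

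The core GGGATTCCC was found in the windows of H2-K1, H2-D1, H2-Q6 and H2-Q7, 4 of 22 class I heavy chain windows, and in 0.353% of all windows. TTTCNNTTT, part of the interferon-stimulated response element, was found in 4 of 22 class I heavy chain windows (H2-T3, H2-T22, H2-T23 and H2-M11), in the windows of B2m and H2-Oa and in 10.55% of all. Only exact letters were counted. The H2-K1 stretch above holds tttcacttc, which differs from the pattern only in its last letter and was not counted. The count therefore does not show that H2-K1 or other windows lack the element. The gamma-activated site TTCNNNGAA was found in 2 of 22 class I heavy chain windows, 1 of 6 partner windows and 1 of 8 class II windows, against 8.30% of all.

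Among the partners of the heavy chains, the light chain B2m ranged in siLuc from 1340 to 2633 FPKM with a median of 1462 and was 1616, 1973, 799.5, 1675 and 1923 FPKM in siYap. Replicate 3 was below every siLuc library and the others lay within their range (log2 fold change -0.05 ± 0.21, adjusted p = 0.874). Tap1, a subunit of the peptide transporter, ranged in siLuc from 15.3 to 29.0 FPKM with a median of 23.9 and was 18.8, 14.3, 18.6, 15.6 and 14.5 FPKM in siYap. It was called lower (log2 fold change -0.51 ± 0.15, adjusted p = 0.0199), though the groups overlapped through siLuc replicate 8.

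The second transporter subunit, Tap2, had 13.5 ± 1.68 FPKM in siLuc (SD, n = 8) and 12.0 ± 3.27 in siYap (SD, n = 5) and was not called (adjusted p = 0.421). Tapbp ranged in siLuc from 13.7 to 29.7 FPKM with a median of 22.3 and was 30.2, 30.2, 40.6, 26.4 and 31.2 FPKM in siYap. All siYap libraries but replicate 4 lay above the siLuc range. Tapbp was called higher (log2 fold change 0.58 ± 0.18, adjusted p = 0.0258), but not without siYap replicate 1 (adjusted p = 0.0513) or replicate 3 (adjusted p = 0.0812).

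The immunoproteasome subunits replace their standard counterparts after interferon exposure. Psmb9 ranged in siLuc from 36.5 to 54.1 FPKM with a median of 42.0 and was 27.0, 29.5, 28.1, 39.6 and 28.7 FPKM in siYap. All siYap libraries but replicate 4 were below the siLuc range. Psmb9 was called lower (log2 fold change -0.48 ± 0.15, adjusted p = 0.0210), but not without siYap replicate 3 (adjusted p = 0.0585). Psmb8 and Psmb10 were not called, with log2 fold changes of -0.25 and 0.29 (adjusted p = 0.161 and 0.218).

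The ratio of Psmb9 to its counterpart Psmb6 in FPKM was 0.215 to 0.367 in siLuc and 0.193 to 0.341 in siYap, so the groups overlapped. Nlrc5 was not called (log2 fold change 0.40 ± 0.24, adjusted p = 0.208). The 2 genes called lower in this class are neighbours on chr17, Psmb9 at 34182030-34187330 and Tap1 at 34187556-34197225. They run in opposite directions from starts that lie 226 bases apart, so a single stretch precedes both. Its 150 bases nearest Psmb9 are shown here (chr17:34187331-34187480, minus strand), with the Y box in capitals. The bases nearest the start of Tap1 are not shown.

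Psmb9: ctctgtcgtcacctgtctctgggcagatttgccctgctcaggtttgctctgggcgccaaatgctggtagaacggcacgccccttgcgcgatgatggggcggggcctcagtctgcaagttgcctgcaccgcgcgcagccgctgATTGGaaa

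When counts of fragments were summed over libraries that share a number in the file names, neither neighbour was called (adjusted p = 0.0648 for Tap1 and 0.0529 for Psmb9). Within the file-code digits 6, 7 and 8 the log2 differences were -0.60, -0.52 and -0.07 for Tap1 and -0.82, -0.34 and -0.33 for Psmb9. For Tapbp they were 0.54, 0.54 and 1.198.

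H2-Ke2, a prefoldin subunit gene, was lower in siYap (46.0 ± 7.15 against 29.99 ± 9.195 FPKM, log2 fold change -0.60 ± 0.16, adjusted p = 0.0124), but not without siYap replicates 1 and 3 (adjusted p = 0.0972). H2-Ke6, which encodes a steroid dehydrogenase, was not called (adjusted p = 0.840), and 70.5% of its 50-base words also occurred in another gene.

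The contrast between the classes was also described library by library. The mean log2 abundance of each class was taken relative to its siLuc mean. The class I heavy chain mean was 0.11 to 0.31 in the siYap libraries and -0.32 to 0.21 in siLuc. The class II mean was -1.47 to -0.67 in siYap and -1.002 to 0.90 in siLuc. The difference, class I minus class II, was 0.98 to 1.59 in siYap and -0.81 to 0.91 in siLuc, with no overlap when H2-L was included. The class I mean includes genes that share fragments with copies, H2-L, H2-Q9 and H2-T9 among them. H2-L stood at 83.4 FPKM in siYap replicate 3, which had the highest class I mean (0.31) and the smallest siYap difference (0.98). In siLuc H2-L had 2.09 to 5.04 FPKM. The narrow gap to the highest siLuc difference (0.91, replicate 2) therefore cannot be read apart from H2-L. A mean without H2-L was not formed, so the lack of overlap is not established for the other class I genes. This score was not tested, since its genes were chosen with earlier results known.

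**Figure D4:**
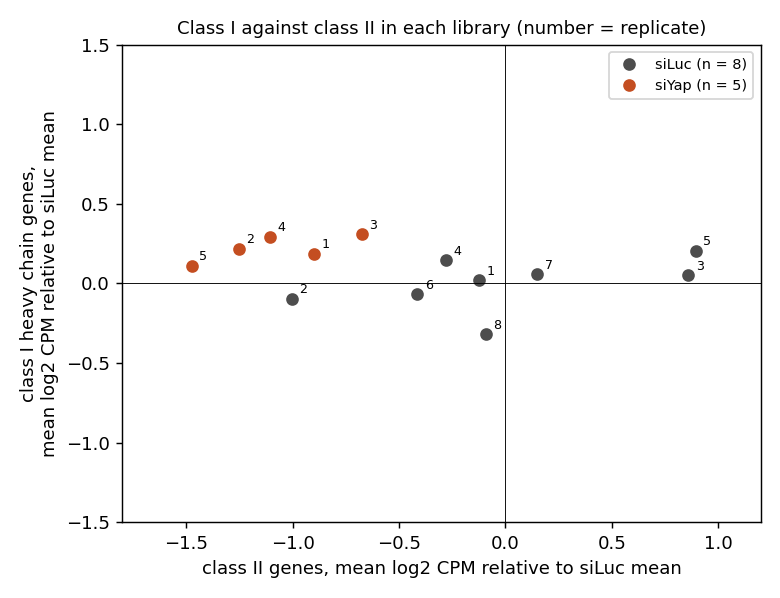
Mean log2 CPM (counts scaled to library size) of class II genes (x axis) and of class I heavy chain genes (y axis) in each library, both relative to the siLuc mean, with replicate numbers. The 5 siYap libraries lie at the upper left, between -1.47 and -0.67 on the class II axis. The class I mean of siYap replicate 3 includes H2-L at 83.4 FPKM.

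Other genes of the pathways were counted from lists. These counts, and those of cell type markers below, are to be read beside the 16.0% of all genes called higher and 14.8% called lower. The cathepsin Ctss, which trims the invariant chain, was lower in siYap (371.9 ± 78.9 against 177.5 ± 50.7 FPKM, log2 fold change -1.09 ± 0.21, adjusted p = 0.00153), as was the endopeptidase gene Lgmn (-0.49, adjusted p = 0.0202). The other 4 of 6 genes of class II peptide generation were not called. Among 5 genes of class II turnover and co-stimulation, 3 were called lower: the ubiquitin ligase March1 (log2 fold change -0.80), Cd86 (-0.63) and Cd40 (-1.15).

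The trimming peptidase Erap1 was the 1 gene called among 5 of class I loading and trimming, with 52.4 ± 7.21 FPKM in siLuc and 84.2 ± 17.6 in siYap and no overlap (log2 fold change 0.69 ± 0.15, adjusted p = 0.00400). Of the 3 standard proteasome subunits none was called, with Psmb6 at -0.40 and Psmb7 at -0.26 on the log2 scale. None of the 4 genes listed with the proteasome activator was called either (Psme2 at -0.02, Pomp at -0.25).

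Mr1, a class I-like molecule that presents vitamin B2 metabolites, had 17.5 ± 4.59 FPKM in siLuc (SD, n = 8) and 4.55 ± 1.67 in siYap (SD, n = 5). Its groups did not overlap, and the log2 fold change was -1.90 ± 0.25 (SE; adjusted p = 8.07e-05). The neonatal Fc receptor gene Fcgrt was called higher (log2 fold change 0.50, adjusted p = 0.0422), and the other 4 of 6 class I-like genes were not called.

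The factors that bind class I and class II promoters moved in both directions. Rfxank (log2 fold change 0.51), Nfyb (0.57) and Nfyc (0.57) were called higher and Creb1 (-0.44) lower, 4 of 7 genes tested. Of 15 interferon receptor and signalling genes tested, Jak1 (0.46) and Irf2 (1.01) were called higher and Jak2 (-0.53) lower. Of 22 interferon-induced genes 1 was called, the guanylate-binding protein gene Gbp6, which was higher (log2 fold change 0.59, adjusted p = 0.0414).

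Markers of the cells that make class II differed by cell type. Of 13 macrophage and Kupffer cell markers, 6 were called lower (Emr1, Csf1r, Clec4f, C1qa, C1qb and C1qc) and 0 higher, and their summed level was 268.5 to 467.5 FPKM in siLuc and 144.5 to 283.3 in siYap, with C1qa, C1qb and C1qc as the main contributors. The part of macrophage content in the class II differences was not tested. Of 9 dendritic cell markers, Zbtb46 was called higher and Cd209a lower, with sums of 9.53 to 20.2 FPKM in siLuc and 7.91 to 17.9 in siYap. Ccr7 was at 0 in 1 library. None of 6 tested B cell markers of 8 was called, and the sums were 3.55 to 8.26 and 5.22 to 8.42 FPKM, with Pax5 at 0 in some libraries.

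Other cell types were followed by the same rule. All 7 neutrophil markers were called higher, with sums of 37.4 to 208.6 FPKM in siLuc and 168.4 to 1269 in siYap. Of the NK cell markers 2 of 7 were called higher, of the endothelial markers 3 of 7 and of the stellate cell and fibroblast markers 2 of 7. None of these 3 lists had a gene called lower. With 16.0% of all genes called higher, counts this small do not set these 3 lists apart. Of 6 cholangiocyte markers, Epcam, Sox9 and Spp1 were called lower, and Krt7 and Krt19 were not called, with log2 fold changes of 0.12 and 0.23. The cholangiocyte sum of 1938 to 5053 FPKM in siLuc and 159.1 to 1141 in siYap was nearly all Spp1, which alone had 1912 to 5012 and 153.0 to 1130 FPKM. Among 8 hepatocyte markers 2 were called higher and 3 lower, with sums of 11760 to 18970 and 9883 to 15150 FPKM, and all 8 were above 0 in every library. The part of these cell types in the class I differences was not tested.

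**Figure D5:**
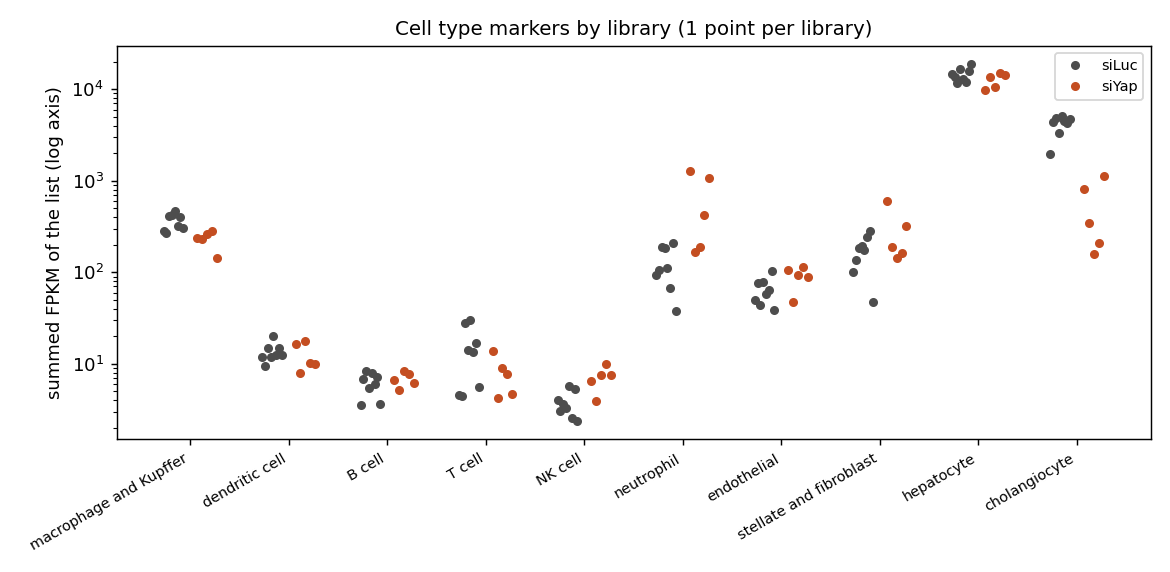
Summed FPKM of each cell type marker list (y axis, log scale) in each library, siLuc in grey and siYap in orange. The macrophage sum is lower in siYap with an overlap at 268.5 to 283.3 FPKM, the cholangiocyte sum, nearly all Spp1, is lower without overlap, while the B cell and dendritic cell sums overlap between the groups.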

How the data were processed

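RNA of 13 tumours' libraries, 8 siLuc and 5 siYap, was analysed. The ScriptSeq Complete Gold Kit and a HiSeq2500 were used, per the labels' protocols. The submitters' processing notes name the build mm10 and the tools Cuffdiff 2.1.1, Cufflinks, TopHat2 2.0.8 and Trimmomatic 0.30. The annotation, the strand setting and the treatment of reads matching several genes are unstated in the sources.

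Per the file headers, each deposited table gives raw fragments and FPKM for each gene. As deposited by the authors, raw fragments are estimated counts without scaling, of which 97.6% to 98.0% were whole to within 1e-06. The deposited FPKM values were scaled to length and depth in the authors' Cuffdiff run. The internal replicate indices of the siYap tables are 0, 1, 5, 6 and 7, so further libraries, not analysed here, may have entered that scaling. The genes Alb, Apob and Trf, marked in the file headers' status column as too deep to estimate, were left out (3 genes). A table of the whole series was not used here.

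Estimated counts were rounded and tested with edgeR 4.0.16 in R 4.3.3 (quasi-likelihood F test, robust, TMM scaling, default low-count filter by group, 15132 genes, Benjamini-Hochberg adjustment over all of them, no covariates). Standard errors were derived as log2 fold change divided by the square root of F. The test was checked on simulated counts. Depth was 23637021 to 37043914 fragments per library. Motifs, which were chosen and shortened to at most 9 letters after the data were seen, were searched in RefSeq windows of GRCm38.p6, and shared words in GENCODE transcripts. Class means used log2 CPM with a prior count of 2.

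Replicate numbers, which the groups share, were checked for pairing: libraries with the same number correlated in their deviations from the group means by between -0.12 and 0.127, and were treated as unpaired. Alternatives were the Wald test of DESeq2 1.42.0 and the edgeR test with relative log expression or upper-quartile scaling. The relative log expression scaling is named DESeq2 size factors here, though edgeR computed it. Further alternatives were other filters, limma 3.58.1 on log2(FPKM + 1) or log2(FPKM + 0.1), a replicate block and the file-code digit as a term. The rest were counts summed per file-name number, each library left out, siYap replicates 1 and 3 left out together, and an adjusted p under 0.01. Summing copy pairs was added after the data were seen. The genes, gene lists, alternatives and the comparison were chosen with earlier results of these data known. The rule for names took every tested member, untested members with their highest FPKM, Yap1, and of each list the called genes (over 4 called, those with the smallest p; with none called, the 2 with the highest FPKM). The individual macrophage, dendritic, T and B cell marker genes named beside the lists' sums fall outside it.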

Additional observations from a re-analysis of the deposited data

Results flagged for a closer look

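In each group, the highest and the lowest library of every tested gene were compared with the rest, and 6 of 82 such groups held a library whose gap to its neighbour was large relative to the group's range. Chance gives about 1 in 20. H2-L stood at 83.43 FPKM in siYap replicate 3, against 5.74 to 9.55 in the other 4 siYap libraries, and is a gene whose fragments are shared with H2-D1. H2-T9 was low in siYap replicate 1, at 8.924 FPKM against 23.3 to 28.1 in the others, and shares fragments with H2-T22. H2-Bl was high in siLuc replicate 1, at 1.867 FPKM where the siLuc median was 0.553. B2m was high in the same library, at 2633 FPKM where the siLuc median was 1462. Psmb9 was high in siYap replicate 4, at 39.57 FPKM against 27.0 to 29.5 in the others. Ciita was high in siYap replicate 3, at 2.82 FPKM against 0.582 to 1.09 in the others.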

How the results depend on the processing

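Over 26 alternatives, H2-Aa (log2 fold change -2.32 to -1.87), H2-Ab1 (-2.25 to -1.96), H2-Eb1 (-2.32 to -1.91) and H2-M2 (-3.06 to -1.77) stayed lower and called. Of 1044 single-gene values, 969 kept their direction and side of the threshold, 29 newly passed it, 17 lost it and 29 changed sign, and the cause was not tested. No replicate pairing was found: only 1 of 5 numbers correlated best with its own. With the replicate block, 1186 genes of the table were called higher and 1112 lower, class I heavy chain genes higher were 1, and partner genes were 0 higher and 1 lower. That 1 gene was H2-T9 (adjusted p = 0.0463), while H2-L (0.101), H2-K2 (0.110), H2-Q9 (0.0580), H2-T10 (0.0707), Tapbp (0.0991) and Psmb9 (0.0501) lost their calls. With the file-code digit as a term, 9 class I heavy chain genes were higher and 2 lower; with copy pairs summed 2 were higher; with DESeq2 size factors, upper-quartile scaling or DESeq2's test 2 were lower. Without siYap replicates 1 and 3, 1512 genes were called higher and 1472 lower, with partner genes 0 higher and 1 lower. At an adjusted p under 0.01 the counts were 1264 and 1098, and partner genes 0 and 0. Summed per file-name number, 0 partner genes were lower. With each library left out, class I heavy chain genes lower were 1 to 2, partner genes higher 0 to 1 and lower 1 to 2, and all genes 1729 to 2397 higher and 1596 to 2236 lower.

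The sign changed only for genes that were not called. H2-D1 was 0.003 with a mean count of at least 50, 0.072 summed per number, 0.28 without siYap replicates 1 and 3, and -0.12 to 0.13 with each library left out. Without siYap replicates 1 and 3, H2-Q1 was 0.001, H2-Q2 0.15, B2m 0.22 and H2-Ke6 0.18. H2-T22 was -0.008 with the block and -0.066 with the digit, and B2m 0.06 summed per number. With each library left out, H2-Q2 was -0.24 to 0.17, H2-T22 -0.052 to 0.21, H2-Bl -0.48 to 0.19, B2m -0.16 to 0.12 and H2-Ke6 -0.20 to 0.051. Depth limits the genes below 1 FPKM, such as H2-Eb2, H2-Oa and H2-Ob.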

Other observations

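In their order along chromosome 17 (GRCm38), the tested genes of the class II block alternated between larger and smaller differences. H2-Oa, H2-DMa and H2-DMb1, from 34092379 to 34160229, had log2 fold changes of -0.75, -0.75 and -1.04. The class I processing genes Psmb9, Tap1, Psmb8 and Tap2 follow, up to 34216321, with -0.48, -0.51, -0.25 and -0.16. H2-Ob had -0.70, and H2-Ab1, H2-Aa, H2-Eb1 and H2-Eb2, from 34263227 to 34341410, had -2.12, -2.05, -2.12 and -1.31. The processing genes lay between class II genes with larger differences on either side. The class I genes H2-K1 and H2-D1 at either end of this stretch had 0.39 and -0.01.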
